A study of Homo sapiens with 6 samples.

Results

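The cancer-testis antigen families MAGEA, MAGEB, MAGEC, CSAG, GAGE, PAGE, XAGE, SSX and CT45A were followed in MDA-MB-231, a triple-negative line of human breast cancer, labelled as control (NC) or as ARID1A knockout (KO1 and KO2). ARID1A binds DNA as part of BAF, a SWI/SNF complex that remodels chromatin. GEO lists 2 samples in each of the 3 groups, and total RNA was sequenced from stranded libraries. The deposited table has 1 column per group, and it does not say whether a column is 1 library or both, nor whether KO1 and KO2 are clones or pools of cells. Members were chosen by gene symbol alone, as the protein-coding genes of these families, which gave 71 of 58174 gene IDs. Of these, 70 lie on the X chromosome. The other, SSX2IP on chromosome 1, matches by name only: it encodes a centrosomal protein named for binding SSX2, and it was left out of the SSX family.

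Cancer-testis antigens are genes normally active in male germ cells and silent in most other adult tissues, where DNA methylation of their promoters is a main means of silencing. Many tumours express some of them, and T cells can recognise peptides from their proteins. MAGE proteins share a MAGE homology domain that binds RING-type ubiquitin ligases. GAGE, PAGE and XAGE are related families of small acidic proteins, SSX proteins are nuclear repressors known from the fusion oncogenes of synovial sarcoma, and CT45A and CSAG genes lie in clusters of similar copies.

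The cells held few of these transcripts. Of the 71 members, 52 had 0 counts in all 3 columns, 19 were above 0 in any column, 11 reached 10 counts in a column, and 5 had a mean of 1 CPM or more. CPM, or counts scaled to a common library size, is given after TMM scaling. All 13 GAGE genes and all 9 CT45A genes were at 0, for which 3 counts set the upper limit, or 0.107 CPM in NC, 0.130 CPM in KO1 and 0.107 CPM in KO2. Total estimated counts were 25801499 to 26798753 per column, and genes of the mitochondrial genome took 12.8 to 20.5% of them. The targeted gene ARID1A had levels of 77.2 (NC), 45.7 (labelled KO1) and 83.8 CPM (labelled KO2), so its RNA did not separate the column labelled KO2 from NC, and each direction given here is of columns by their labels. Markers of the line were present (VIM at 2922 to 4716 CPM), whereas 7 of 10 markers of male germ cells were at 0 in every column and the list summed to 0.535 to 0.608 CPM. Not all markers went this way. Of 5 genes listed as low or absent in the line, 1 had a mean of 1 CPM or more, ERBB2, at 75.6 CPM in NC. ESR1, on the same list, had 0 (NC), 0 (KO1) and 14 (KO2) counts. Of 7 markers of Sertoli and Leydig cells 2 reached that mean, SOX9 at 98.8 and AMH at 22.9 CPM in NC.

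Promoters are shown first, from RefSeq (GRCh38.p14), up to the first annotated transcript start, for MAGEB2, 2 pairs of the Xq28 cluster, MAGEC1, MAGEC2 and XAGE1A, a choice made after their values were seen. Capitals mark the word CCGGATGT, read on both strands, which contains GGAT, a core bound by ETS transcription factors, and was picked after these sequences had been seen. Not shown are SSX1, whose window lacks this word, and CSAG3, whose window holds it. MAGEB2 was lower in both knockout columns, and its stretch is chrX:30215313-30215559 on the plus strand.
MAGEB2: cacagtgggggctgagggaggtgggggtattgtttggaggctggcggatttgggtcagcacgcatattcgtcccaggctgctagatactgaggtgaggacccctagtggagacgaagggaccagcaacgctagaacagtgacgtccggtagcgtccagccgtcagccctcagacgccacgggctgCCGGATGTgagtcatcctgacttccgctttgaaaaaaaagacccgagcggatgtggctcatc

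CSAG1 and MAGEA12, at 0 counts in both knockout columns, face away from each other with starts 44 bases apart, and the bases between them are chrX:152733736-152733778, given on MAGEA12's plus strand. CSAG2 and MAGEA2B form a like pair with starts 37 bases apart, and chrX:152714550-152714585 lies between them.
CSAG1 to MAGEA12: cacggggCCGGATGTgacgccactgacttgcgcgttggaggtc
CSAG2 to MAGEA2B: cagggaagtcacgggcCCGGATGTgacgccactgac

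MAGEC1 (chrX:141903644-141903893, plus strand) and MAGEC2 (chrX:142205291-142205540, minus strand) were at 0 counts in NC and above 0 in both knockout columns. XAGE1A (chrX:52495558-52495675, plus strand) was the highest member by level and is shown for contrast. Its stretch is shorter, at 118 bases, because the RefSeq windows of XAGE1A reach no further upstream. It also leaves out the bases next to the RefSeq starts, which lie downstream, so the contrast is not like for like.
MAGEC1: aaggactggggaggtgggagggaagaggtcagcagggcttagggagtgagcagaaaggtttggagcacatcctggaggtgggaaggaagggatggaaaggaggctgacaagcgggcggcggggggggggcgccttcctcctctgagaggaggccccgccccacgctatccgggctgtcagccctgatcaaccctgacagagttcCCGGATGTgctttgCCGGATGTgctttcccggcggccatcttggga
MAGEC2: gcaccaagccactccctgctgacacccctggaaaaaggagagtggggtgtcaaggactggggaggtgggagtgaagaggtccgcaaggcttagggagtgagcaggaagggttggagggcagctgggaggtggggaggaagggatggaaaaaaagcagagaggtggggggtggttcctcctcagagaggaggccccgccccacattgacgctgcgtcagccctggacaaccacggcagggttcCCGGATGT
XAGE1A: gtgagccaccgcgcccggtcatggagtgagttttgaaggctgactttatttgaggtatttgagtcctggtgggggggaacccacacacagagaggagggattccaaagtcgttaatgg

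The word lay 54 bases before the start of MAGEB2, 28 before that of MAGEA12, 12 before that of MAGEA2B, and directly before that of MAGEC2. MAGEC1 held 2 copies. The RefSeq table gave 76 windows of 300 bases (250 before to 50 after a start) for 59 of the members. Of these windows 20, or 26.3%, held the word, against 246 of all 35116 windows, or 0.701%. On the X chromosome 34 of 1236 windows held it, 20 of them those of members. By family it was in 13 of 16 MAGEA windows, 3 of 12 MAGEB windows, 2 of 3 MAGEC windows and 2 of 2 CSAG windows, and in none of the GAGE, PAGE, XAGE, SSX or CT45A windows. The word was found in 10 of 17 genes above 0 in any column and in 4 of 42 genes at 0. The genes above 0 include those from which the word was picked. Many genes at 0 belong to families without it, such as GAGE and CT45A, so nothing is read from this split. Windows of 1 family are related copies and not independent, and the word was present both in genes lower than NC and in genes higher than NC. A match is a string of letters and was not tested for binding.

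MAGEB2, a MAGE gene in the cluster at Xp21 (ENSG00000099399, hg38 chromosome X, 30215560 to 30220089), had the highest count in NC of the 68 members other than SSX2IP and the XAGE1 copies. Its counts were 542 (NC), 11 (KO1) and 8 (KO2), or 19.3, 0.478 and 0.285 CPM. MAGEB2 fell, 40.5-fold lower in KO1 than in NC (95% interval 22.4 to 81.6) and 67.8-fold lower in KO2 (34.15 to 158). Intervals are exact (Clopper-Pearson), cover counting error only, and say nothing of the spread between cultures. Its transcript shares no stretch of 50 bases with another gene, so division among copies does not enter this value. The adjusted p was 0.0342 (edgeR quasi-likelihood test of both knockout columns as 1 group against NC, Benjamini-Hochberg over 18289 genes), where 0.257% of genes passed. The test has 1 residual degree of freedom and takes the lone NC column to vary like the knockout columns. The call was lost on total counts without TMM scaling (adjusted p = 0.316, edgeR), among nuclear protein-coding genes alone (0.0943) and on counts implied by FPKM (0.0650).

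CSAG1, a small gene of the Xq28 MAGEA cluster (ENSG00000198930, chromosome X, 152727484 to 152733735), had 157 counts in NC, or 5.60 CPM, and 0 counts in both knockout columns. CSAG1 fell by at least 43.0-fold in KO1 and 52.4-fold in KO2, against a floor of 3 counts per column. Its adjusted p was 0.0369 (edgeR). The call was lost in the same settings as that of MAGEB2 (adjusted p of 0.325, 0.142 and 0.0674, edgeR) and also with edgeR's newer quasi-likelihood method (0.0618). MAGEA12, a type I MAGE gene, starts 44 bases from CSAG1 on the other strand and showed the same pattern of counts, with 53 in NC and 0 in both knockout columns. It was lower by at least 14.5-fold in KO1 and 17.7-fold in KO2, but its adjusted p was 0.124 (edgeR), so it was not called.

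The other transcripts of that stretch of Xq28 were few. CSAG2 had 11 (NC), 5 (KO1) and 0 (KO2) counts, and CSAG3 16, 7 and 0. Their coding sequences are 99.7% identical, and fragments can hardly be assigned to either. Summed, they had 27, 12 and 0 counts, 1.85-fold lower in KO1 (0.905 to 4.01, an interval that includes equality) and at least 9.004-fold lower in KO2. Over the 11 members of the locus (chromosome X, 151912509 to 153183880), the summed counts were 255 (NC), 14 (KO1) and 0 (KO2). In the column labelled KO1 these were counts of CSAG2 and CSAG3, beside MAGEA2 and MAGEA2B with 1 count each, under the floor of 3. The column labelled KO2 held none. Forms at the first start of the gene had 3 (NC) and 1 (KO1) counts for CSAG2, and 4 and 0 for CSAG3. The other CSAG2 and CSAG3 counts were on forms that start 5284 to 5297 bases downstream. This split depends on how the authors shared out fragments between forms. Of 24 measured neighbours within 1 Mb of this locus, 7 were higher and 1 lower in KO1, and 7 higher and 2 lower in KO2, with medians of 0.67 and 0.53 (log2).

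**Figure D1:**
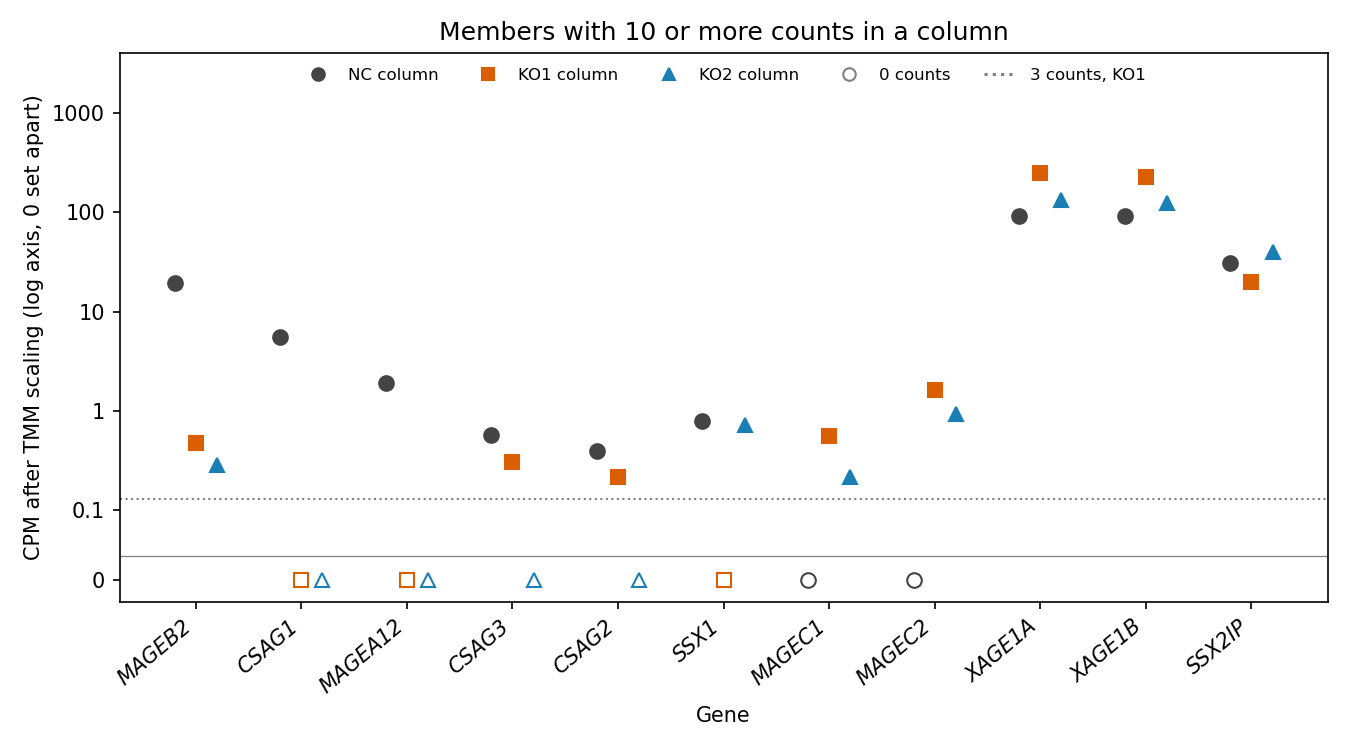
Level of each member with 10 or more counts in a column, in CPM after TMM scaling on a log axis with 0 set apart below the line. Each point is 1 column (grey circle NC, orange square KO1, blue triangle KO2), open points are 0 counts, and the dotted line is the level of 3 counts in KO1 (0.130 CPM). MAGEB2, CSAG1 and MAGEA12 are highest in NC, MAGEC1 and MAGEC2 are at 0 in NC, and the XAGE1 copies are above all others in every column.

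MAGEC genes showed the opposite order. MAGEC2, a MAGE protein known as a partner of TRIM28 (ENSG00000046774, chromosome X, 142202345 to 142205290), had 0 (NC), 37 (KO1) and 26 (KO2) counts, which is higher than NC by at least 15.0-fold in KO1 and 8.66-fold in KO2. MAGEC1, a larger MAGE gene first found as the antigen CT7, had 0, 13 and 6 counts, at least 5.275-fold higher in KO1 and 1.999-fold in KO2. Together they had 0 (NC), 50 (KO1) and 32 (KO2) counts, higher by at least 20.3-fold and 10.7-fold. Neither gene was called (adjusted p of 0.233 for MAGEC2 and 0.596 for MAGEC1, edgeR), and the levels remain low, at 0.98 and 0.75 TPM for MAGEC2. The genes are nearly free of shared sequence, with 99.9% of the 50-base stretches of MAGEC2 and 99.6% of those of MAGEC1 in no other gene.

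The on and off patterns have a background among other genes. Of the members with 10 or more counts in a column, 2 (CSAG1 and MAGEA12) had at least 10 counts in NC and 0 in both knockout columns, a pattern of 0.606% of 14030 other protein-coding genes and of 0.87% of 460 on the X chromosome. Another 2 (MAGEC1 and MAGEC2) had 0 in NC, at least 5 in both knockout columns and at least 10 in one of them, against 1.09% and 2.83%. These patterns were not among the planned results and use unlike limits, so the shares are a description and no test. CSAG1 and MAGEA12 share 1 start region, and MAGEC1 and MAGEC2 are related copies in 1 cluster, so neither pair counts as independent genes. Both comparisons with NC use the same NC column.

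XAGE1 carried most of the members' RNA. XAGE1A (ENSG00000204379) and XAGE1B (ENSG00000204382) are inverted copies at Xp11.22 that encode the antigen XAGE-1, and all stretches of 50 bases of XAGE1A also occur in XAGE1B, so the 2 were summed. Their counts were 5131 (NC), 10871 (KO1) and 7191 (KO2), or 183, 472 and 256 CPM. KO1 was 2.58-fold higher than NC (2.50 to 2.67) and KO2 1.40-fold higher (1.35 to 1.45). In deposited TPM, which is per length, XAGE1 stood at 474, 951 and 709, against 19.2 for MAGEB2 and 12.2 for CSAG1 in NC. By TPM the pair ranked 200 among 19749 nuclear protein-coding genes in NC, 92 in KO1 and 109 in KO2. The edgeR test called neither copy (adjusted p of 0.842 for XAGE1A and 0.887 for XAGE1B).

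The XAGE1 forms did not differ to the same extent. The annotation gives each copy a form of 614 bases, 1 of 474 bases that starts 156 bases downstream of it and 1 of 733 bases that starts 201 bases downstream of it. In XAGE1B a minor form of 472 bases starts further upstream. The 614-base form had 3613 (NC), 5022 (KO1) and 4637 (KO2) counts, or 1.69-fold (1.62 to 1.77) and 1.28-fold (1.23 to 1.34) higher. The 474-base form had 379, 1926 and 1071 counts, 6.19-fold (5.54 to 6.93) and 2.83-fold (2.51 to 3.18) higher than NC. The 733-base form had 1092, 3863 and 1424 counts, 4.31-fold (4.03 to 4.61) higher in KO1 and 1.30-fold (1.20 to 1.41) in KO2. The 614-base form thus took 70.4% (NC), 46.2% (KO1) and 64.5% (KO2) of XAGE1 counts. These values depend on how the authors shared out fragments between forms that overlap.

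**Figure D2:**
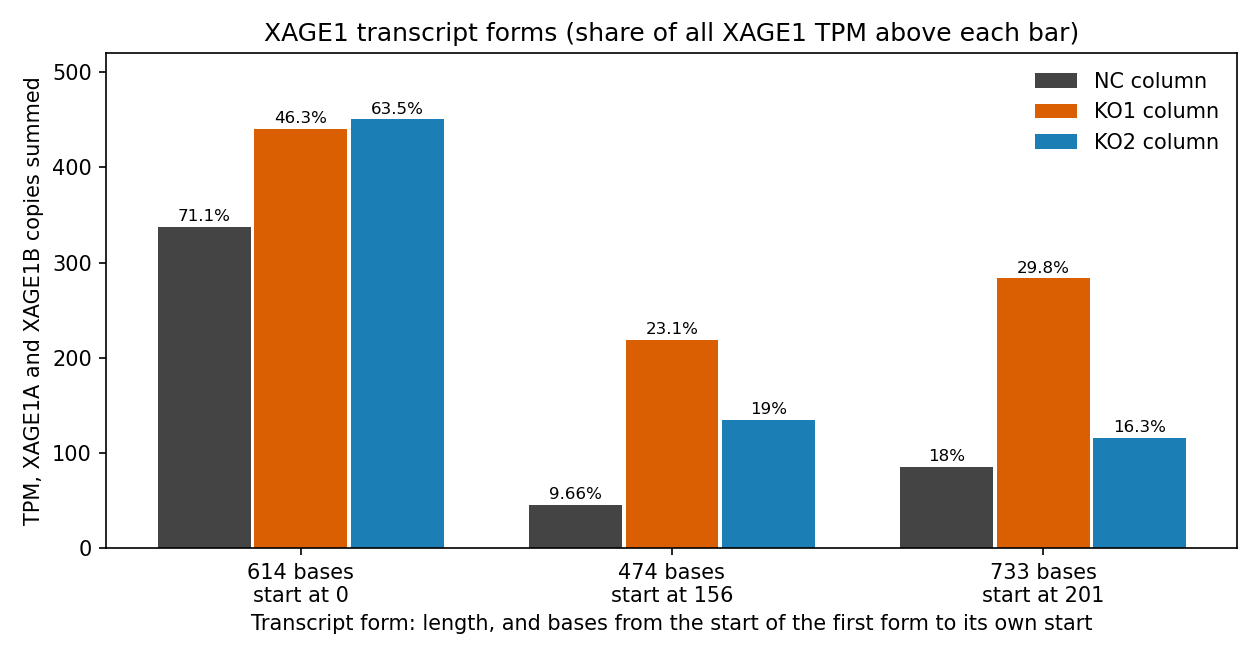
Deposited TPM of the 3 main XAGE1 transcript forms, XAGE1A and XAGE1B summed, as bars for the NC (grey), KO1 (orange) and KO2 (blue) columns, with the form's share of all XAGE1 TPM above each bar. The 474-base form is at 9.66% of XAGE1 TPM in NC, 23.1% in KO1 and 19.0% in KO2.

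SSX1 and SSX2IP were lower in KO1 than in either other column. SSX1, the first partner gene of synovial sarcoma fusions, had 22 (NC), 0 (KO1) and 20 (KO2) counts. It was at least 6.02-fold lower in KO1 than in NC, and 1.10-fold lower in KO2 (0.573 to 2.13). Its adjusted p was 0.978 (edgeR). SSX2IP had 864, 459 and 1120 counts, or 30.8, 19.9 and 39.95 CPM. It was 1.55-fold lower in KO1 than in NC (1.38 to 1.73) and 1.30-fold higher in KO2 (1.19 to 1.42), with an adjusted p of 0.998 (edgeR). Its transcript of 5835 bases had 827 (NC), 3 (KO1) and 1085 (KO2) counts, while that of 5843 bases had 17, 442 and 1. Their starts are 258 and 335 bases downstream of the gene's first start, and they share their end. As for XAGE1, this split depends on how the authors shared out fragments between forms that overlap.

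By the size rule, which asks for a log2 fold of at least 1 in size (prior count of 2), an exact interval that excludes equality and a mean of at least 1 CPM, the 5 measured members split as follows. In KO1 2 were higher (XAGE1A and XAGE1B), 2 lower (MAGEB2 and CSAG1) and 1 neither (SSX2IP), where 15.4% of all 14524 measured genes were higher and 17.4% lower. In KO2 0 were higher, 2 lower and 3 neither, against 11.0% and 9.98%. MAGEB2 and CSAG1 were lower in both columns, against 5.65% of genes, and none was higher in both, against 6.22%. Both reached the mean of 1 CPM through their NC level alone, so at their knockout levels they could enter the measured set only as lower, and nothing is read from the count of lower members. Between KO2 and KO1 0 of the 5 passed, against 26.1%. Of these, CSAG1 had 0 counts in both columns and MAGEB2 had 11 (KO1) and 8 (KO2), and XAGE1A and XAGE1B are copies. SSX2IP, higher in KO2 than in KO1 by a log2 fold of 0.9998, lay just under the limit of 1. Nothing is therefore read from this count on how alike the knockout columns are. The rule gives no p-value, and a member under 1 CPM cannot pass it.

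Summed by family, counts in NC, KO1 and KO2 were 71, 4 and 0 for MAGEA, 184, 12 and 0 for CSAG, and 549, 19 and 10 for MAGEB. PAGE had 0, 8 and 0 counts, all from PAGE2B. Nearly all of the MAGEB sum was MAGEB2, beside MAGEB17 with 4 (NC), 0 (KO1) and 2 (KO2) counts and MAGEB6 with 3, 8 and 0, which was higher in KO1 by 3.25-fold (0.779 to 19.0, an interval that includes equality). MAGEB was 23.7-fold lower in KO1 (15.05 to 39.7) and 54.9-fold lower in KO2 (29.6 to 115.2), CSAG 12.6-fold lower in KO1 (7.04 to 24.8) and at least 61.4-fold lower in KO2, and MAGEA 14.6-fold lower (5.45 to 55.0) and at least 23.7-fold lower. In NC CSAG1 gave 157 of the 184 CSAG counts and MAGEA12 53 of the 71 MAGEA counts, so these sums too were mostly 1 gene each. The 68 members other than SSX2IP and XAGE1 had 826, 93 and 62 counts in all, 7.30-fold lower in KO1 (5.88 to 9.14) and 13.3-fold lower in KO2 (10.3 to 17.5). Of the 826 counts in NC, 542 were of MAGEB2. The sums over these 68 members were 29.5, 4.04 and 2.21 CPM. With XAGE1 the sum of the 70 members was lowest in NC instead, at 213 CPM, with 476 in KO1 and 259 in KO2.

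**Figure D3:**
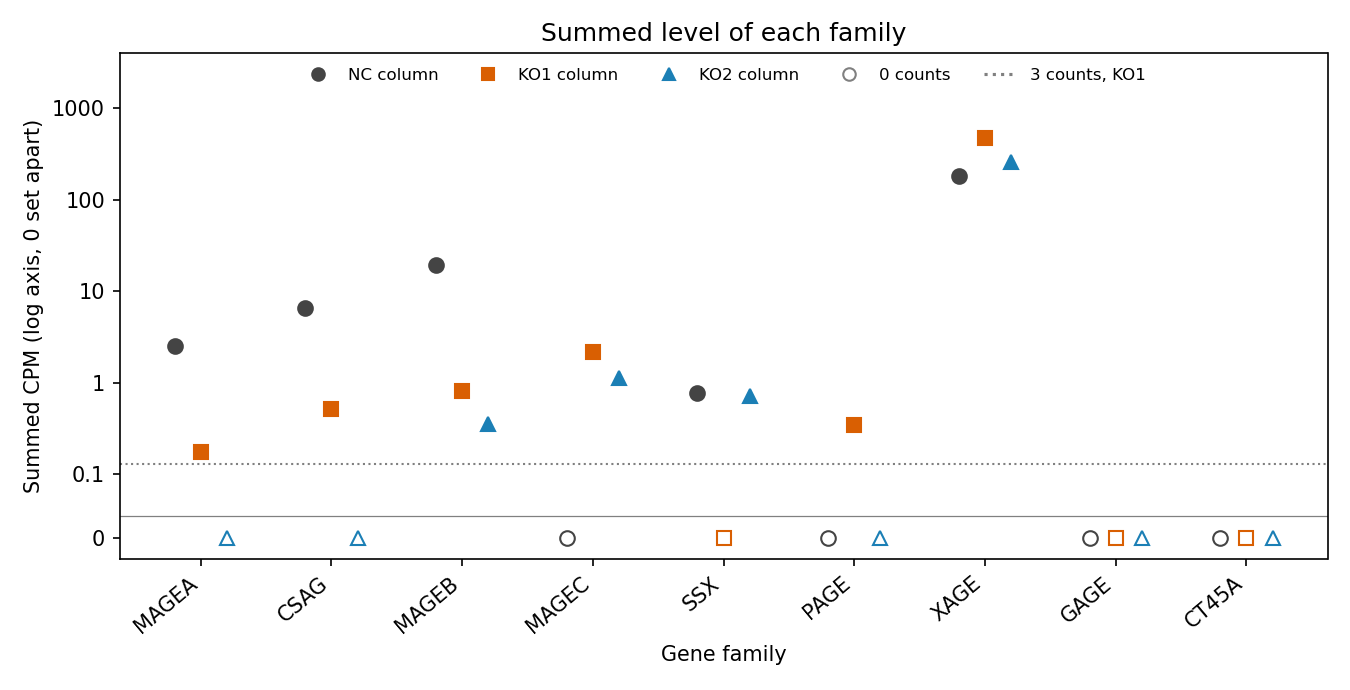
Summed CPM of each family on a log axis with 0 set apart, 1 point per column, with the dotted line at 3 counts in KO1. MAGEA, CSAG and MAGEB are highest in NC, MAGEC is above 0 in the knockout columns alone, XAGE is highest in KO1 (472 CPM), and GAGE and CT45A are at 0 throughout.

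The members lie on a chromosome whose other genes had a median above that of all genes. Over 413 measured protein-coding genes of the X chromosome that are no members, the median log2 fold was 0.42 in KO1 and 0.52 in KO2, against -0.01 and 0.00 over all measured genes. Over 134 measured neighbours within 1 Mb of a member locus it was 0.69 and 0.70, with 45 higher and 8 lower in KO1 and 46 higher and 8 lower in KO2. Around XAGE1 12 neighbours were measured, with medians of 0.79 and 1.11, beside log2 folds of 1.37 and 0.49 for XAGE1 itself. Around MAGEB2 3 were measured and 0 were lower in either column. Around MAGEC1 and MAGEC2 4 were measured, with 0 higher in either column and 1 lower in KO2. Most of these 4, with the 1 lower, are genes of the SPANX family, themselves cancer-testis genes. They are thus no background of unrelated genes, and some of them are counted again among the other cancer-testis genes below. Some type II MAGE genes given below are likewise among the 134 neighbours. The part of a chromosome-wide shift in the members' values was not tested.

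**Figure D4:**
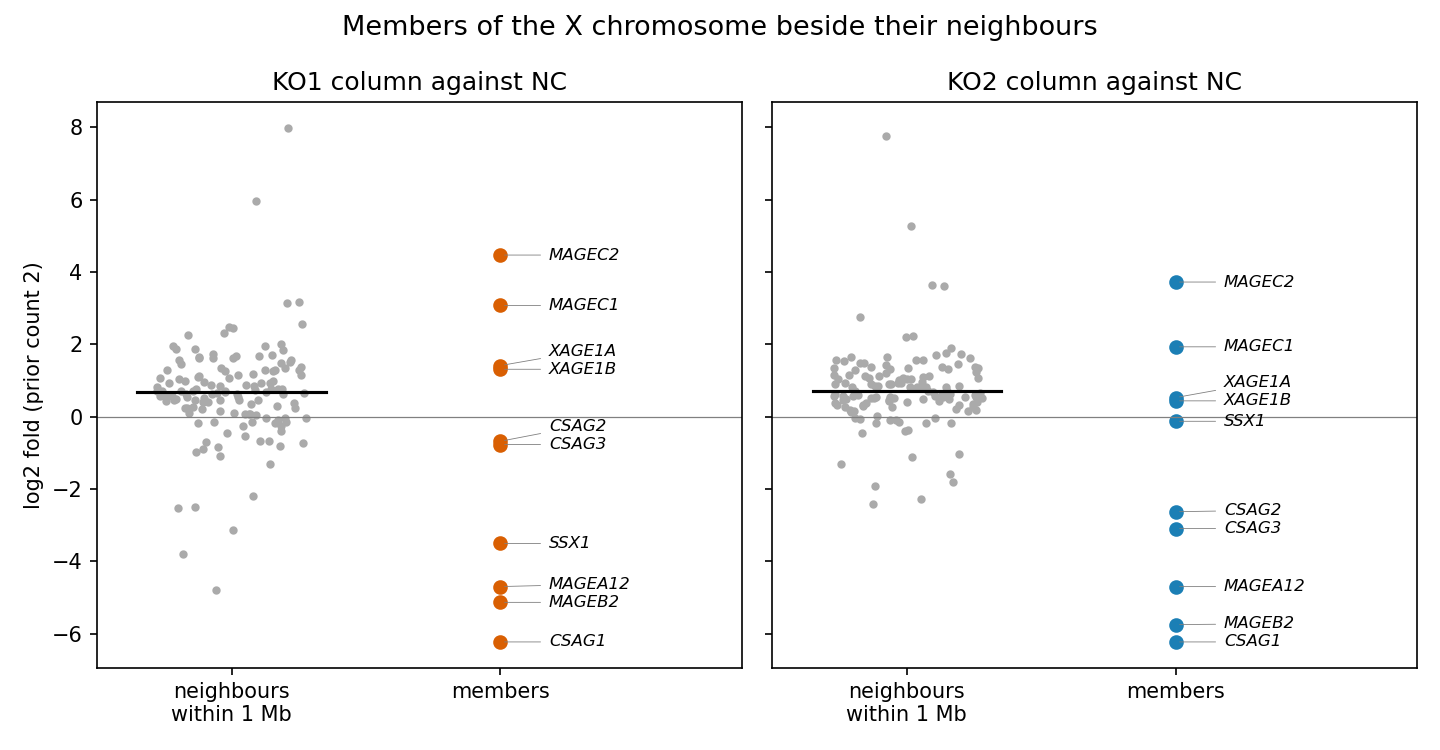
Log2 fold against NC (prior count of 2) in the KO1 column (left) and the KO2 column (right). Grey points are the 134 measured neighbours within 1 Mb of a member locus, spread sideways to be seen, the black line is their median (0.69 and 0.70), and coloured points are the members of the X chromosome with 10 or more counts in a column, several of which have a column at 0.

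Other gene groups give the setting. Of all 14524 measured genes, 15.4% were higher and 17.4% lower in KO1, and 11.0% and 9.98% in KO2. In both columns 6.22% were higher and 5.65% lower. These shares apply to each list here and below. Of 66 other cancer-testis genes in the table, 19 were measured, with 4 higher and 1 lower in KO1 and 2 higher and 2 lower in KO2 (medians of 0.11 and 0.29). Higher in both were DDX53, an X-linked helicase gene of the testis, at 0, 4.78 and 3.10 CPM in NC, KO1 and KO2, and ZNF165, a zinc finger gene, at 0.892, 10.6 and 3.39 CPM. Lower in both was CABYR, a sperm tail protein, at 3.21, 0.217 and 0.749 CPM. Of 6 measured genes of the widely expressed type II MAGE group, 2 were higher in both columns and 0 lower: MAGED2 at 51.6, 109 and 108 CPM and MAGEH1 at 0.714, 3.13 and 3.64 CPM. The edgeR test called 0 genes of either list.

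Of 17 genes that write, read or erase DNA methylation, 16 were measured, with 2 higher and 6 lower in KO1 and 2 higher and 0 lower in KO2. The shares of all measured genes were 15.4% and 17.4% in KO1, and 11.0% and 9.98% in KO2. DNMT1, the maintenance methyltransferase, was at 245 CPM in NC, 122 in KO1 and 215 in KO2. UHRF1, which recruits it, was at 184, 17.2 and 160 CPM. The de novo enzymes DNMT3A and DNMT3B were at 7.07, 8.60 and 9.49 CPM and at 21.1, 34.6 and 12.8 CPM. UHRF2, a paralog of UHRF1, was higher in both columns, at 16.9, 48.2 and 38.3 CPM. Methylation itself was not analysed here.

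Among 24 repressors of germline genes, all measured, 2 were higher and 4 lower in KO1 and 1 was higher and 0 lower in KO2. All measured genes gave 15.4% and 17.4% in KO1, and 11.0% and 9.98% in KO2, so nothing is read from these counts. Higher in both was KDM5C, an X-linked H3K4 demethylase, at 52.9, 115 and 116 CPM. Of 11 measured ETS and SP factors, 1 was lower in both columns, the ETS factor FLI1, at 2.96, 0.434 and 1.11 CPM. Of 12 measured partners of MAGE proteins 0 passed in both columns, with 1 higher and 2 lower in KO1 and 0 of either in KO2. The edgeR test called 0 genes of these 3 lists and of the methylation list.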

How the data were processed

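Per the submitters' processing notes, CASAVA, Bowtie2, featureCounts and hg38 were used, with no version or role stated. The authors deposited estimated counts, TPM and FPKM per transcript, with 1 column per group. The deposited counts were treated as estimated counts rounded up, since 99.3% of low counts lay 0 to 1 above those that FPKM implies (tolerance 0.05). Counts were summed per gene (199167 transcripts, 0 without a gene ID, 0 columns unmatched). GENCODE release 29 gave gene types, and 41805 gene IDs had a current symbol. The planned copy groups by protein identity were replaced by coding sequences at least 98% identical.

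The test was edgeR 4.0.16 (R 4.3.3, glmQLFit and glmQLFTest, filterByExpr, TMM, two-sided, adjusted p under 0.05), with DESeq2 1.42.0 as an alternative. The edgeR fit alone was also run on simulated counts. These had a smaller spread than was fitted here (common dispersion of 0.248), so that run does not measure the error of the test on these data. Several edgeR set-ups were tried after the data were seen, and are given below with the rest. Total library sizes were kept in the reported fit from that stage on, in place of totals over tested genes. Its p-values rest on the difference of 2 columns and on no replicate cultures. For CSAG1 and MAGEA12, at 0 counts in both knockout columns, these 2 columns show no spread, so theirs rest on the spread fitted over other genes. Both genes also passed the filter through NC alone. "Rose" and "fell" are kept for the calls of the reported edgeR test. Folds against 0 use a floor of 3 counts per column. No molecular identifiers were used, so fragments are not independent molecules.

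Members and lists were chosen with earlier results of these data known. Named were members with a mean of at least 1 CPM, 10 counts in a column, a call or a place past the size rule, and family sums. Also named were up to 3 genes per list and direction past the rule in both columns, DNMT1, DNMT3A, DNMT3B, UHRF1 and ARID1A. MAGEA2, MAGEA2B, MAGEB6, MAGEB17 and PAGE2B, and the markers ERBB2, ESR1, SOX9 and AMH, were added after their values were seen. The values of 1 gene that the rule names are not reported here.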

Additional observations from a re-analysis of the deposited data

How the results depend on the processing

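The number of genes called by edgeR depended strongly on the set-up. It was 47 as reported and 0 on total counts alone (1174 at an unadjusted p under 0.05), 9 among nuclear protein-coding genes, 15 on counts implied by FPKM (6 decimals) but 48 on those implied by TPM (2 decimals), 493 without a filter on low counts and 298 with DESeq2. The set-up first run took library sizes from tested genes and gave 48 (MAGEB2 0.0325, CSAG1 0.0352); keeping total library sizes, as reported, was chosen after the data were seen. Other set-ups added then gave 90 (TMM before the filter), 36 (newer quasi-likelihood method), 44 (both of these) and 23 (robust), and copies summed gave 48. MAGEB2 was under 0.05 in 10 of 13 settings (adjusted p from 3.57e-07 to 0.316) and CSAG1 in 9 of 13 (1.03e-07 to 0.325). MAGEA12 was under it in 2 (DESeq2, 0.0441, and no filter, 0.000424) and MAGEC2 in 1 (no filter, 0.0259). Of members, 0 were called lower on total counts, nuclear genes or counts implied by FPKM, 1 with the newer method, and 1 was called higher without a filter.

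With no minimum level the size rule gave 5 members higher and 4 lower in KO1, 2 and 8 in KO2, and 1 and 4 in KO2 against KO1. Near-identical copies, such as CSAG2 and CSAG3, are counted apart in these numbers. No share of all genes is given for this setting or those that follow, so nothing is read from the counts of members. With a minimum of 5 CPM 1 was lower in each knockout column. In KO1 1 was higher on deposited TPM and with copies summed. In KO2 1 was higher on nuclear genes, and against KO1 1 was higher with DESeq2 size factors, total counts, TPM or a prior count of 0.5. The XAGE log2 fold in KO1, 1.37 as reported, was 1.32 with DESeq2 size factors, 1.14 on total counts, 1.43 on nuclear genes and 1.0 on TPM. In KO2 it was 0.58 on TPM, and that of MAGEC in KO1 was 3.63 on TPM. Total counts moved the median of all genes to -0.24 in KO1. No family sum changed direction in any setting.

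No paired analysis was possible because the columns carry no replicate number. Leaving out a knockout column leaves 0 residual degrees of freedom, so the single-column values stand in its place. Depth limits members under 3 counts per column.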
